A study of Mus musculus with 10 samples.

Results

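The genes described here encode the secreted and membrane-bound metalloproteinases that cut the extracellular matrix, together with their tissue inhibitors. They were chosen by symbol from the table of summed gene counts: every gene named Mmp with a number, Adamts with a number, or Timp with a number. This gave 46 of the 32899 genes in the table, made up of 23 matrix metalloproteinases (MMPs), 19 ADAMTS proteases (a disintegrin and metalloproteinase with thrombospondin motifs) and 4 TIMPs (tissue inhibitors of metalloproteinases). No measured value entered the choice of members, but the family was taken up with earlier results of the same comparison known. Counts over the family are therefore a description, and the tests quoted for single genes were adjusted over all genes of the table.

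The cells were inguinal subcutaneous preadipocytes, fibroblast-like cells that can mature into adipocytes, of male wild-type C57 BL6 mice. Total RNA was sequenced in 10 libraries: 5 of cells that received only the solvent DMSO and 5 of cells that received BPS (bisphenol S, an analogue of bisphenol A) at 2.5 µM in the same solvent. The study's title asks about reactive oxygen species and the adipogenic action of bisphenols. The labels do not give animal age, exposure time or whether replicates were separate animals or dishes, so p-values measure the spread between these libraries, which may be technical.

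MMPs are made as inactive zymogens and use a zinc ion to cut peptide bonds. Collagenases open the collagen triple helix, gelatinases take apart denatured and basement membrane collagen, and stromelysins cut proteoglycans and also activate other MMPs. ADAMTS enzymes trim procollagens, cleave large proteoglycans such as versican, or act on microfibrils. TIMPs block the active sites of MMPs, and Timp3 also inhibits ADAMTS enzymes. In fat, this machinery remodels the matrix around precursors as they turn into lipid-filled cells, with the membrane-anchored Mmp14 known as a pericellular collagenase of adipose tissue.

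Some promoter sequences are shown first because the Mmp genes that lie side by side on chromosome 9 share a feature there. AP-1, a pair of Fos and Jun family proteins, is a textbook activator of Mmp3, Mmp13 and the interstitial collagenases through a short element close to their start sites. RefSeq promoters (GRCm38.p6, 250 bases before to 50 after each start site) were found by symbol for 32 of the 46 genes and searched on both strands for the AP-1 motif TGANTCA. Of the 10 Mmp genes of the chromosome 9 cluster, 8 had a match, against 0 of the other 22 genes searched. The share was 8.97% over 27025 genes with a promoter in the table. No promoter was found for Adamts16, Mmp17 and Mmp19, described below, so they were not searched. The matches below are given with 10 bases on each side, read along the gene's strand, with the motif in capitals.
Mmp13: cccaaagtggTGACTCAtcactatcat
Mmp12: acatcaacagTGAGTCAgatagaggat
Mmp1b: ttacaaagccTGAGTCAtatagcctct
Mmp3: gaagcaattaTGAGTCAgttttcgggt
Mmp1a: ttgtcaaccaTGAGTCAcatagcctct
Mmp10: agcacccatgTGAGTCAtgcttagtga
Mmp20: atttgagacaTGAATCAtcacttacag
Mmp7: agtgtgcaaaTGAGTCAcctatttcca
Counted from the start site, with bases before it negative, the first base of the motif lay at -35 in Mmp13, -46 in Mmp3, -63 in Mmp10, -73 in Mmp1a, -93 in Mmp1b and -95 in Mmp20. Mmp12 and Mmp7 have more than 1 listed start: the motif lay at -44 from the downstream start of Mmp12 and at -63 from the upstream start of Mmp7. The windows of Mmp8 and Mmp27 held no match.

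The 250 bases upstream of the Mmp3 start site (chr9:7445572-7445821, plus strand) are shown in full because Mmp3 had the smallest p of the family. Capitals mark the AP-1 match and a match to AGGAAG, the PEA3 motif bound by ETS factors, which starts at -183. The PEA3 motif is common: it was present in 38.42% of genes with a promoter in the table.
Mmp3: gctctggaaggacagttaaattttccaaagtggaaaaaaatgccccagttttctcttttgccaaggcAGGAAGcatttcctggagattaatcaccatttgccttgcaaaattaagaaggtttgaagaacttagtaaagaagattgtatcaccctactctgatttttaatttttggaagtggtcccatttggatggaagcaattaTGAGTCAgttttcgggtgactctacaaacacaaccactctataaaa
The same stretch of Adamts1 (chr16:85803114-85803363, minus strand) is shown for contrast, since Adamts1 had the smallest p among the members that rose. It held no AP-1 match, and its capitals mark a match to TNGCGTG, the core bound by the aryl hydrocarbon receptor, which was found in 5.84% of genes with a promoter. Of the 32 members searched, 3 had this match: Adamts1, Mmp7, which was not tested, and Timp3, which was not called. The promoter of Timp2, which also rose, held no match to it.
Adamts1: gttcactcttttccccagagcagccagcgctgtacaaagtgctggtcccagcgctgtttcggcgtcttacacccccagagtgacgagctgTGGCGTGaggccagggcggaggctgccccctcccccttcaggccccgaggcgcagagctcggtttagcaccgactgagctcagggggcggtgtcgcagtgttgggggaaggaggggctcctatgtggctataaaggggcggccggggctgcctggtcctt
G and C made up 37.6% of the Mmp3 stretch and 65.6% of the Adamts1 stretch. A motif match describes letters only and is no evidence that a factor was bound.

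Library totals lay between 37920689 and 42717227 estimated counts and overlapped between groups. Levels are in CPM, the gene's count scaled to its library's total of assigned counts, after TMM normalization, which evens out composition between libraries. All 12 preadipocyte and fibroblast markers were detected and tested; Col1a1, Col3a1, Pdgfra and Thy1 were abundant in every library, while Dpp4 (2.45 CPM in DMSO, 2.13 in BPS) and Pi16 (2.02 and 2.21 CPM) were scarce. Of the 12, Thy1 and Cd34 were higher under BPS (log2 fold change 0.19 and 0.28, edgeR adjusted p 0.0013 and 0.000429), and the summed level of the 12 overlapped between groups. Of 5 mesothelial markers, 2 were tested. Krt19 was higher under BPS (edgeR adjusted p = 0.0368), and Wt1 was not called (log2 fold change -0.59, SE 0.21, edgeR adjusted p = 0.155). Msln and Upk3b had 0 CPM in all libraries. Summed levels of 6 mature adipocyte markers were at most 0.23 CPM in any library, and those of 5 neutrophil markers at most 0.13 CPM. The neutrophil markers S100a9 and Ly6g had 0 CPM in all libraries. Of 8 macrophage markers, Csf1r also had 0 CPM throughout, but 6 were detected well enough to be tested. The highest of them was Lyz2, at 8.51 CPM in DMSO and 8.83 in BPS. All 6 endothelial markers were tested and 0 were called, with summed levels of 17.6 to 23.0 CPM in DMSO and 17.0 to 22.9 CPM in BPS. Among 7 markers of mural (smooth muscle and pericyte) cells, 4 were higher under BPS, namely Acta2, Des, Mcam and Cspg4. The summed level of the 7 ran from 1087 to 1163 CPM in DMSO and from 1404 to 1508 CPM in BPS. The part of these marker changes in the results on proteases and inhibitors was not tested. In these bulk samples a change in the number of cells of a type and a change in RNA per cell, in either direction, cannot be told apart. Library numbers in the labels placed all DMSO libraries before all BPS libraries, so a batch that followed that order and the treatment cannot be told apart.

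Of the 46 genes, 37 passed the filter on low counts: 18 MMPs, 16 ADAMTS proteases and 3 TIMPs. To compare genes with each other, levels were divided by transcript length (CPM per kilobase), using GENCODE lengths available for 45 of the 46. The inhibitor Timp1 stood highest, with a mean of 997.7 CPM per kb in DMSO. It was followed in DMSO by the collagenase Mmp14 at 309.2, the gelatinase Mmp2 at 297.3, the stromelysin Mmp3 at 187.8, Timp2 at 174.9 and Timp3 at 79.4 CPM per kb. Mmp2 is activated at the cell surface by Mmp14 with Timp2 as an adaptor, and all members of that trio were among the 6 highest. The highest ADAMTS gene was Adamts2, the main procollagen I N-proteinase, at 55.2 CPM per kb in DMSO, ahead of Adamts1 at 38.5. At the other end, Adamts20 was the lowest of the 37 tested genes, at 0.0426 CPM per kb in DMSO. The collagenases Mmp13, Mmp8 and Mmp1b were also low, though not the lowest, at 0.220, 0.221 and 0.378 CPM per kb in DMSO.

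**Figure D1:**
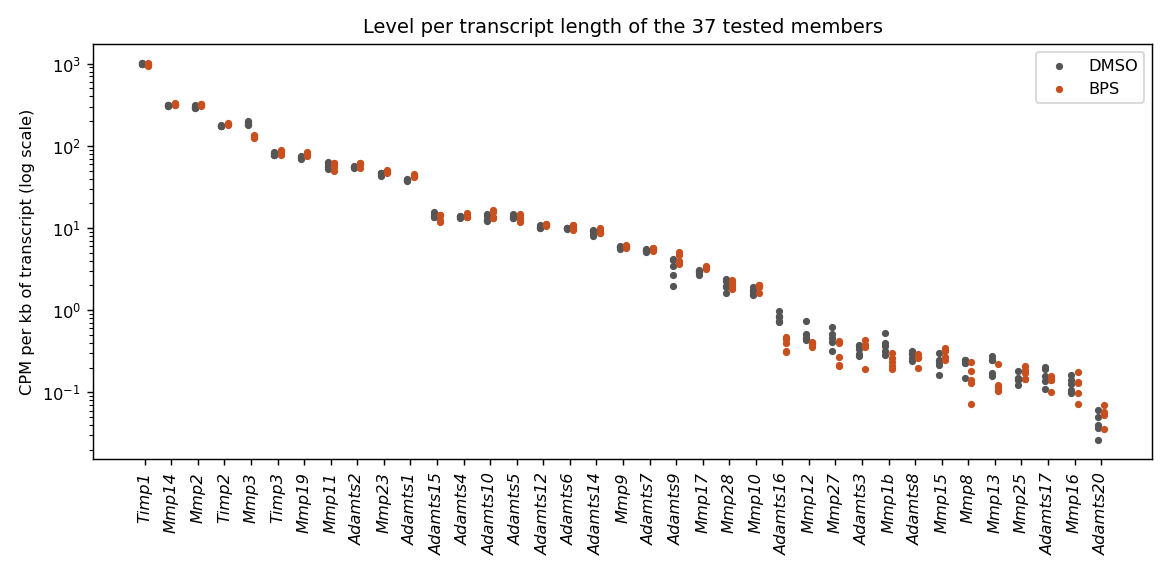
Level of each of the 37 tested genes in every library, as CPM per kb of transcript on a log axis, with DMSO libraries in grey and BPS libraries in orange; genes are ordered by their mean. Timp1 stands highest, at a mean of 997.7 CPM per kb in DMSO, and Adamts20 lowest, and the orange points of Mmp3 and Adamts16 all sit under their grey ones.

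The 9 genes left untested were at or near the limit of detection. Adamts19 had 2 to 12 counts per library, Mmp1a 2 to 7, Adamts13 1 to 5 and Mmp24 0 to 8. In Adamts18, Mmp20 and Mmp21 the highest library had 3, 2 and 2 counts. Mmp7, matrilysin, had 0 counts in DMSO and at most 1 in BPS. Timp4 had 0 counts in every DMSO library and at most 3 in BPS. No difference was detectable at this depth for genes whose libraries hold 3 counts or fewer.

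The effect of BPS was tested in 14593 genes with the quasi-likelihood test of edgeR, and a gene was called at a Benjamini-Hochberg adjusted p under 0.05. Of the 37 tested genes, 6 were called: Adamts1, Timp2, Mmp17 and Mmp19 rose, and Mmp3 and Adamts16 fell. Among all genes tested, 4.87% were called, 3.06% higher and 1.82% lower. The median log2 fold change was 0.04 over the tested members and 0.00 over all genes. The 5 BPS values lay wholly outside the 5 DMSO values in 7 of the 37, which are the 6 called genes and Mmp12, against 6.90% of all genes tested. In 4 of them BPS was higher and in 3 lower, against 4.18% and 2.72% of all genes. Scaling by library size alone left 5 of the 6 calls, 3 higher and 2 lower, and turned the split over all genes from 446 higher and 265 lower to 334 higher and 392 lower. The rises were small, from 4.87% for Timp2 to 14.1% for Mmp17, and the falls of Mmp3 and Adamts16 were larger.

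**Figure D2:**
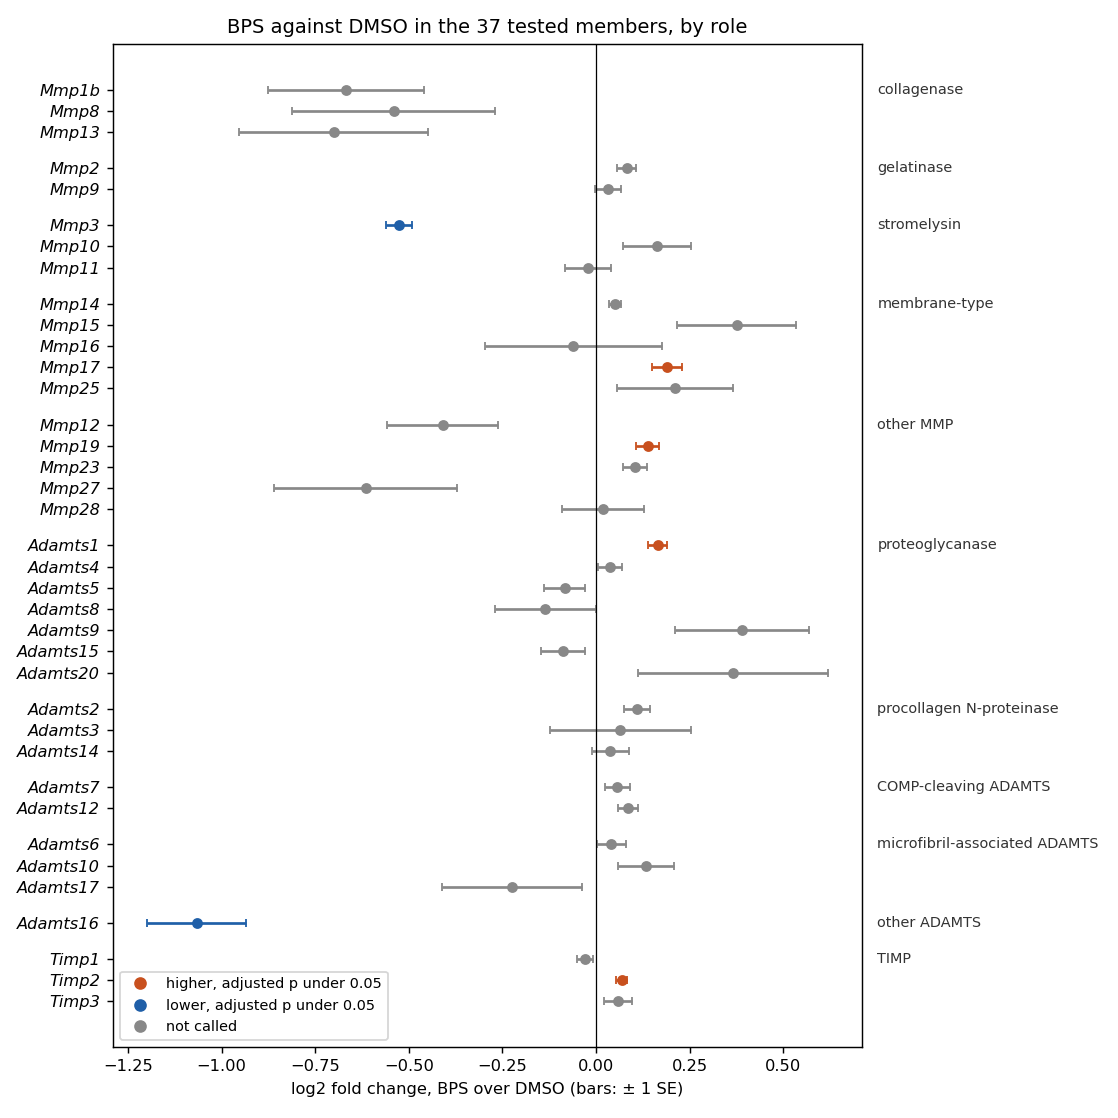
Log2 fold change of BPS over DMSO for the 37 tested genes, grouped by role, with bars of 1 SE either side; orange and blue mark genes called higher and lower at an adjusted p under 0.05, and grey marks genes not called. The rises lie between 0.07 (Timp2) and 0.19 (Mmp17), while Mmp3 stands at -0.53 and Adamts16 at -1.07.

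Among the stromelysins, Mmp3 fell. This enzyme cuts proteoglycans, fibronectin and laminin, and can activate procollagenases. It measured 349.5, 335.2, 359.0, 327.8 and 319.8 CPM in DMSO replicates 1 to 5 and 224.0, 246.8, 236.5, 238.4 and 229.3 CPM in BPS replicates 1 to 5. Every BPS library was under every DMSO library, and no library of either group stood near the other group. The mean went from 338.3 ± 15.96 to 235.0 ± 8.76 CPM (mean ± SD, 5 libraries each), a log2 fold change of -0.53 (SE 0.03, edgeR adjusted p = 1.42e-05). The level fell by 30.5%. All of its counts came from a single RefSeq transcript, at 8283 to 14160 counts per library. That transcript alone had a log2 fold change of -0.52 (SE 0.04, edgeR adjusted p = 0.00102 over 37588 transcripts, of which 0.335% were called). Its closest relative, Mmp10, shares 81.2% identity over 1338 aligned bases and had at most 133 counts in a library.

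Mmp10, stromelysin 2, lies in the same cluster and has a nearly identical substrate range. It had 2.66 to 3.32 CPM in DMSO and 2.77 to 3.48 CPM in BPS, with overlapping groups, a log2 fold change of 0.16 (SE 0.09) and an edgeR adjusted p of 0.379. Mmp11, stromelysin 3, which acts poorly on classical matrix substrates, stood at 126.6 ± 9.46 and 124.9 ± 10.4 CPM (mean ± SD, 5 libraries each; log2 fold change -0.02, SE 0.06, edgeR adjusted p = 0.905).

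The collagenases Mmp13, Mmp8 and Mmp1b were scarce and none was called. Mmp13 had 0.588 ± 0.139 CPM under DMSO and 0.360 ± 0.134 under BPS, Mmp8 had 0.536 ± 0.102 and 0.368 ± 0.147, and Mmp1b had 0.548 ± 0.136 and 0.345 ± 0.0616 (mean ± SD, 5 libraries each). Counts per library were 7 to 30 over these 3 genes, and each had overlapping groups. The edgeR adjusted p were 0.149, 0.316 and 0.0962. Mmp13 passed the threshold when BPS replicate 3 was left out (log2 fold change -0.96, edgeR adjusted p = 0.0432). That was the high BPS library, so a lower p without it is no evidence of a fall. Mmp13 was called in only 1 of the 10 fits that each left out a single library. Mmp1b is 90.6% identical to its copy Mmp1a over the whole transcript, so the division of reads between them is uncertain.

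Mmp12, the macrophage elastase, was not called but did not overlap between groups. It had 1.69, 1.51, 1.42, 1.53 and 2.40 CPM in DMSO replicates 1 to 5 and 1.25, 1.32, 1.33, 1.35 and 1.16 CPM in BPS replicates 1 to 5. The highest BPS value was just under the lowest DMSO value, and the log2 fold change was -0.41 (SE 0.15, edgeR adjusted p = 0.149). Without DMSO replicate 5, the high DMSO library, it was -0.26 (edgeR adjusted p = 0.295). Among 8 macrophage markers, 6 were tested and 0 were called, and their summed level was 11.4 to 18.2 CPM in DMSO and 12.4 to 20.9 CPM in BPS. Its exons overlap those of Mmp1b on the opposite strand by 157 bases, and the strand setting of the counting is not given in the sources used here.

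The genes with AP-1 matches in the promoters shown above are neighbours. In RefSeq's GRCm38.p6 annotation the cluster runs Mmp13, Mmp12, Mmp1b, Mmp3, Mmp1a, Mmp10, Mmp8, Mmp27, Mmp20 and Mmp7, with no other protein-coding gene starting between them. Of the 7 tested members of the cluster, 6 had estimates under 0 and 1, Mmp10, had an estimate above 0. Their median log2 fold change was -0.54, against 0.06 over the 30 tested members outside it. Mmp3 was the only called gene of the 7, and the estimates for Mmp13 (-0.70, SE 0.25), Mmp1b (-0.67, SE 0.21), Mmp27 (-0.61, SE 0.24), Mmp8 (-0.54, SE 0.27) and Mmp12 (-0.41, SE 0.15) rest on 7 to 86 counts per library. Without BPS replicate 1 the estimate for Mmp8 was -0.35. The cluster was set apart after its values were seen, so no test of it is given. Of the 5 tested genes of the cluster with a match, Mmp13, Mmp12, Mmp1b and Mmp3 had estimates under 0 and Mmp10 above 0, and both tested genes without a match, Mmp8 and Mmp27, had estimates under 0.

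**Figure D3:**
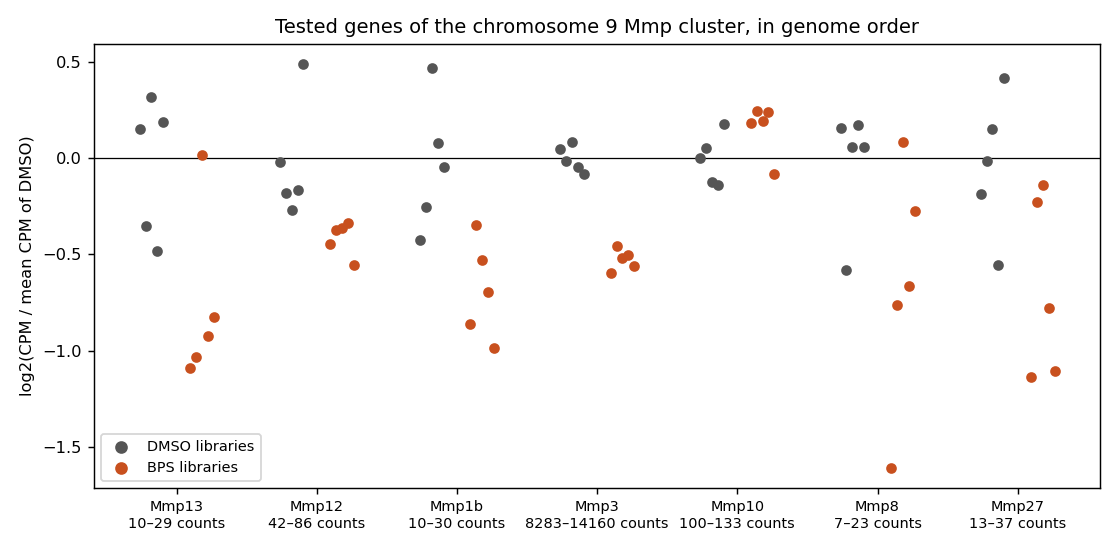
Level of each tested gene of the chromosome 9 Mmp cluster in every library, as the log2 ratio to that gene's mean in DMSO, in genome order; grey points are DMSO and orange points BPS libraries, and the range of counts per library is under each name. Mmp3, with 8283 to 14160 counts, separates tightly, while Mmp13, Mmp8 and Mmp27 spread widely and overlap between groups, and Mmp10 has 4 of its 5 BPS libraries above the mean of DMSO.

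The levels of AP-1 subunits were read beside this, from a list of 7 subunit genes. Of these, Fos rose from 2.03 ± 0.291 to 5.27 ± 1.42 CPM (mean ± SD, 5 libraries each; edgeR adjusted p = 0.00104) and Fosl2 fell from 241.8 ± 2.94 to 230.3 ± 4.87 CPM (edgeR adjusted p = 0.0412). The other 5 were not called. Fosl2 lost its call in 8 of the 10 leave-one-out fits, with an edgeR adjusted p of up to 0.0988 without DMSO replicate 2, and held without BPS replicate 2 or BPS replicate 5.

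The gelatinases Mmp2 and Mmp9 were not called. Mmp2, which was the most abundant protease by CPM, measured 923.4, 901.3, 897.9, 972.4 and 881.0 CPM in DMSO replicates 1 to 5 and 987.6, 946.0, 980.0, 973.2 and 955.5 CPM in BPS replicates 1 to 5. DMSO replicate 4 was the high DMSO library and lay among the BPS values, while the other 4 lay under all of them. The log2 fold change was 0.08 (SE 0.02, edgeR adjusted p = 0.0861), and 0.10 without DMSO replicate 4 (edgeR adjusted p = 0.0130). Leaving out the library that overlapped BPS lowers p by construction, so that fit is no evidence of a rise. It was the only 1 of 10 leave-one-out fits with a call, and the others had edgeR adjusted p of 0.0981 to 0.178. Mmp9, which neutrophils and macrophages release in quantity, had 18.6 ± 0.486 and 19.0 ± 0.662 CPM (mean ± SD, 5 libraries each; edgeR adjusted p = 0.695).

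Of the 5 tested membrane-type MMPs, Mmp17 rose. Mmp17 is anchored by a lipid (GPI) rather than a transmembrane stretch. It had 18.8, 19.0, 18.9, 17.2 and 20.1 CPM in DMSO replicates 1 to 5 and 21.6, 22.1, 20.5, 21.5 and 21.5 CPM in BPS replicates 1 to 5. The lowest BPS library was just above the highest DMSO library. The log2 fold change was 0.19 (SE 0.04, edgeR adjusted p = 0.0214), on 653 to 861 counts per library. The call was lost without BPS replicate 2 (edgeR adjusted p = 0.0558) and without BPS replicate 4 (0.0507).

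Mmp14, the main membrane collagenase, measured 807.5, 796.2, 786.6, 818.0 and 804.9 CPM in DMSO replicates 1 to 5 and 854.0, 830.7, 817.8, 834.6 and 817.2 CPM in BPS replicates 1 to 5. The groups overlapped only through DMSO replicate 4, which exceeded 2 BPS libraries by under 1 CPM. The log2 fold change was 0.05 (SE 0.02) with an edgeR adjusted p of 0.109. Mmp15, Mmp16 and Mmp25 had 12 to 65 counts per library and were not called.

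Mmp19, an MMP expressed widely in resting tissue, rose. It measured 222.9, 211.8, 206.0, 215.5 and 217.9 CPM in DMSO replicates 1 to 5 and 251.0, 235.1, 224.9, 240.2 and 230.5 CPM in BPS replicates 1 to 5. BPS replicate 3 was close to DMSO replicate 1, and the other BPS libraries were well clear of DMSO. The log2 fold change was 0.14 (SE 0.03, edgeR adjusted p = 0.0221). The call was lost without DMSO replicate 2, DMSO replicate 3 or BPS replicate 4 (edgeR adjusted p 0.0576, 0.0513 and 0.0573). The counts came from 2 RefSeq transcripts that did not share the change equally. The longer held 61.9% of the counts and had a log2 fold change of 0.23 (SE 0.09), and the shorter had -0.02 (SE 0.11), neither called. The longer transcript shares 789 bases with Tmem198b, a gene on the opposite strand, which had 21.7 ± 2.28 CPM under DMSO and 22.2 ± 2.11 under BPS (mean ± SD, 5 libraries each; edgeR adjusted p = 0.896).

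The remaining tested MMPs were not called. Mmp23 had 65.0 ± 2.65 CPM under DMSO and 69.9 ± 2.16 under BPS (mean ± SD, 5 libraries each), and with an edgeR adjusted p of 0.0822 it was the member nearest to the threshold from outside. Mmp27 had 13 to 37 counts per library and Mmp28, known as epilysin, 160 to 263.

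Of the 7 tested proteoglycan-cleaving ADAMTS genes, Adamts1 rose. This enzyme cuts versican and aggrecan, and is known to be expressed by adipocyte precursors. It had 184.7, 193.0, 189.2, 187.7 and 186.5 CPM in DMSO replicates 1 to 5 and 214.2, 201.3, 209.5, 207.6 and 222.5 CPM in BPS replicates 1 to 5. Every BPS library was above every DMSO library. The mean went from 188.2 ± 3.15 to 211.0 ± 7.90 CPM (mean ± SD, 5 libraries each), a log2 fold change of 0.16 (SE 0.02, edgeR adjusted p = 0.00336), or 12.1% higher. The gene has a single listed transcript, with 6677 to 8540 counts per library, which was also called when transcripts were tested without summing (edgeR adjusted p = 0.0339).

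Adamts5, the main aggrecanase of mouse cartilage, was not called: it stood at 149.6 ± 8.05 CPM under DMSO and 141.2 ± 12.2 under BPS (mean ± SD, 5 libraries each; log2 fold change -0.08, SE 0.06, edgeR adjusted p = 0.469). Adamts4 stood at 60.01 ± 1.46 and 61.7 ± 2.91 CPM, and Adamts15 at 85.1 ± 4.97 and 80.2 ± 7.30 CPM. Adamts9, a conserved versican-cleaving member, was the most variable of the genes above 10 CPM within DMSO, with values of 25.2, 24.4, 11.7, 20.9 and 16.2 CPM in replicates 1 to 5. DMSO replicates 3 to 5 each held less than any BPS library, and the other DMSO libraries each held more than 3 of them. BPS libraries had 22.2, 31.0, 23.4, 24.2 and 28.4 CPM, and the log2 fold change of 0.39 (SE 0.18) had an edgeR adjusted p of 0.268. Without DMSO replicate 3 it was 0.25 (edgeR adjusted p = 0.377). Its transcript with the most counts, holding 53.1% of them, had a log2 fold change of 0.01 (SE 0.13). Adamts8 and Adamts20 had 7 to 45 counts per library and were not called.

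The procollagen N-proteinases Adamts2, Adamts3 and Adamts14 remove the amino-terminal propeptide that keeps fibrillar procollagen soluble, and none was called. Adamts2 had 400.9 ± 10.2 CPM under DMSO and 432.5 ± 23.7 under BPS (mean ± SD, 5 libraries each; log2 fold change 0.11, SE 0.03, edgeR adjusted p = 0.0999). BPS replicate 1, at 393.3 CPM, lay among the DMSO values, and the other BPS libraries, at 431.9 to 453.3 CPM, lay above all of them. Without BPS replicate 1 the log2 fold change was 0.14 (edgeR adjusted p = 0.00614). That library was the one that overlapped DMSO, so a lower p without it is no evidence of a rise. It was the only 1 of 10 leave-one-out fits with a call, and the others had edgeR adjusted p of 0.105 to 0.201. Adamts14 had 45.9 ± 2.78 and 47.2 ± 2.998 CPM, and Adamts3 had 28 to 61 counts per library.

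Adamts7 and Adamts12, which cleave cartilage oligomeric matrix protein, and the microfibril-associated Adamts6, Adamts10 and Adamts17 were not called. Adamts12 came nearest, with 88.7 ± 2.78 CPM under DMSO and 94.1 ± 2.78 under BPS (mean ± SD, 5 libraries each; log2 fold change 0.09, SE 0.03, edgeR adjusted p = 0.0959). The other 4 had log2 fold changes between -0.22 (Adamts17) and 0.13 (Adamts10).

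Adamts16 had the largest fold change of the 37 tested genes. It is a protease of the same branch as Adamts18 that is known from studies of blood pressure and of the kidney and gonad. It had 3.67, 4.09, 4.87, 4.19 and 3.60 CPM in DMSO replicates 1 to 5 and 1.55, 2.01, 2.22, 2.37 and 1.61 CPM in BPS replicates 1 to 5. Every BPS library was well under every DMSO library. Each DMSO library held 129 to 192 counts of it, each BPS library 58 to 84, and the log2 fold change was -1.07 (SE 0.13, edgeR adjusted p = 0.00104). The level fell by 52.3%.

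The counts of Adamts16 were spread over many models: 13 RefSeq transcripts, 9 of them with a mean of at least 1 count, and at most 25.99% of the gene's counts in any of them. Single transcripts were uncertain: the 3 tested had log2 fold changes of 0.27, -1.33 and -2.20 with SE of 1.42, 1.21 and 1.65. The fall is therefore that of the sum. Models whose version matches the reference table exactly held 29.0% of the counts, and from those alone the log2 fold change was -2.89 with an edgeR adjusted p of 0.171.

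**Figure D4:**
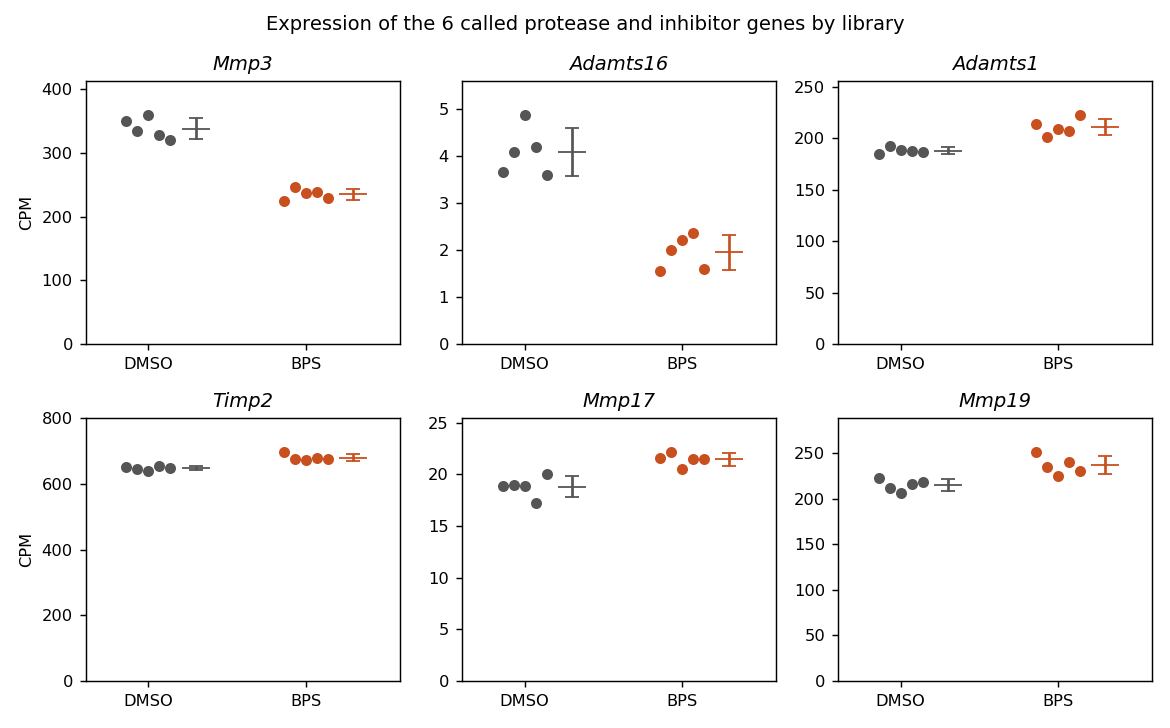
CPM of the 6 called genes in each library, with DMSO in grey and BPS in orange; points are libraries, bars the mean and SD of 5, and each axis starts at 0. In all panels the groups do not overlap, and the gap is wide relative to the level for Mmp3 and Adamts16 and narrow for Timp2, Mmp17 and Mmp19.

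Of the inhibitors, Timp2 rose by a small amount. Timp2 inhibits MMPs broadly and also helps Mmp14 to activate Mmp2. It measured 651.4, 645.8, 639.9, 656.0 and 649.9 CPM in DMSO replicates 1 to 5 and 697.5, 675.4, 671.9, 680.6 and 675.4 CPM in BPS replicates 1 to 5. The groups did not overlap, and within DMSO the coefficient of variation was 0.935%, the lowest of the tested members. The mean went from 648.6 ± 6.06 to 680.2 ± 10.2 CPM (mean ± SD, 5 libraries each), a log2 fold change of 0.07 (SE 0.01, edgeR adjusted p = 0.0176), or 4.87% higher. The call was lost with library size alone, where the log2 fold change was 0.05 and the adjusted p 0.0823 by edgeR. Scaling by DESeq2 size factors or the upper quartile kept it (edgeR adjusted p 0.0185 and 0.0121). It was also lost with no filter, with a replicate block and with transcripts not summed (edgeR adjusted p 0.055, 0.0531 and 0.0689).

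Timp1, the most abundant member per length, measured 872.4, 887.3, 875.3, 866.8 and 902.9 CPM in DMSO replicates 1 to 5 and 852.4, 902.7, 865.7, 866.3 and 830.5 CPM in BPS replicates 1 to 5. The groups overlapped, and the log2 fold change of -0.03 (SE 0.02) had an edgeR adjusted p of 0.520. Timp3, which binds to the matrix and also inhibits ADAMTS and ADAM enzymes, measured 367.1, 363.9, 398.5, 363.1 and 382.1 CPM in DMSO replicates 1 to 5. In BPS it had 362.5, 378.5, 403.9, 392.1 and 415.0 CPM, again with overlap (log2 fold change 0.06, SE 0.04, edgeR adjusted p = 0.455). Timp3 lies within Syn3 on the opposite strand and shares 1733 exonic bases with it, but Syn3 had at most 37 counts per library.

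Summed over each family, MMPs took 2462 to 2585 CPM in DMSO libraries and 2491 to 2551 CPM in BPS libraries. The ADAMTS genes took 1160 to 1219 and 1189 to 1306 CPM, and the TIMPs 1886 to 1935 and 1912 to 1957 CPM. These ranges overlapped for each family. The cluster on chromosome 9, whose sum is nearly all Mmp3, took 328.4 to 366.1 CPM in DMSO and 229.8 to 253.4 CPM in BPS. The tested members with a mean of at least 10 CPM numbered 22, of which 17 had estimates above 0 and 4 were called higher and 1 lower. Of all 9206 genes at that level, 4604 had estimates above 0, 371 were called higher and 246 lower. Of the 15 less abundant members, 9 had estimates under 0 and 1 was called, against 2673 and 94 of 5387 such genes.

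Lists of 75 names were also read, covering other genes of matrix proteolysis, its substrates and the 7 AP-1 subunits above. Of these, 67 genes were tested, 5 were called higher and 4 lower, with a median log2 fold change of 0.02. Fos and Fosl2 are among these calls. Over all genes tested, 3.06% were called higher and 1.82% lower. Among ADAMTS-like proteins, which lack the protease domain, Thsd4 (also known as ADAMTSL6) rose from 14.8 ± 1.30 to 19.1 ± 0.909 CPM (mean ± SD, 5 libraries each; edgeR adjusted p = 0.00491), the only call of 7 tested. Of 10 ADAM proteases, the membrane-bound relatives, Adam33 fell from 55.2 ± 2.56 to 40.9 ± 2.24 CPM (log2 fold change -0.43, SE 0.04, edgeR adjusted p = 0.000132) and 0 rose.

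Among 10 activators and cell surface regulators, Pcsk7, a proprotein convertase, rose from 36.5 ± 0.800 to 39.6 ± 0.980 CPM, and Cav1, the caveolae protein, from 192.4 ± 5.46 to 216.8 ± 4.81 CPM (mean ± SD, 5 libraries each; edgeR adjusted p 0.0213 and 0.00132). The call for Pcsk7 was lost without DMSO replicate 2, 3 or 4 or BPS replicate 2 or 3, with edgeR adjusted p of 0.0514 to 0.0532. Of 8 cysteine cathepsins and cystatins, the lysosomal protease Ctsl fell from 781.6 ± 32.2 to 717.5 ± 12.5 CPM (edgeR adjusted p = 0.0199), a call lost without BPS replicate 4 (0.0525). None of 5 tested astacins and cofactors was called. Of 13 tested proteoglycan, microfibril and related substrate genes, 1 was called: Vcan, which encodes versican, fell from 656.8 ± 14.9 to 577.3 ± 26.3 CPM (log2 fold change -0.19, SE 0.03, edgeR adjusted p = 0.00437). Versican is a known substrate of Adamts1, Adamts4, Adamts5 and Adamts9, described above.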

How the data were processed

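Male mouse preadipocytes given DMSO or BPS were sequenced, 5 libraries each. The authors deposited estimated counts for 107384 RefSeq transcripts, made with kallisto 0.42.4 per the submitters' processing notes, which divides reads among similar transcripts; its index, build and strand setting are not given in the sources used here. Each column was assigned by its library code, and 0 were left over. Accessions without version were matched to genes through a RefSeq table (GRCm38.p6, used for names, gene order and promoters), covering 86714 transcripts and 93.09% of counts; the other 20670 transcripts were not tested. Counts were summed per gene and rounded. The variance between replicates of a group was 4.13 to 8.77 times that of sampling noise, so no library was a copy. The highest values were those of BPS replicate 1 against BPS replicates 5 (8.77), 2 (8.39) and 3 (6.53). Against BPS replicate 4 it was 5.1. filterByExpr left 14593 genes; TMM factors were 0.9854 to 1.008. The test was edgeR's quasi-likelihood test without covariates, Benjamini-Hochberg adjusted, and the SE is the log2 fold change over the root of F. The code was tested on simulated counts.

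The members and lists were chosen with earlier results of these data known. Values in every library are given for called members, TIMPs and the 6 members highest per length; related genes are named when called, except 1 that is not reported here and stays in the counts. Alternatives were other scalings, filters, tests, a replicate block, exact versions, transcripts and leaving out each library. Exon overlaps and lengths came from GENCODE M21. Software comprised edgeR 4.0.16, DESeq2 1.42.0 and limma 3.58.1 under R 4.3.3, with BLASTN 2.17.0 and Python 3.11.15.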

Additional observations from a re-analysis of the deposited data

Results flagged for a closer look

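Each of 74 groups of 5 values (37 tested genes in DMSO and in BPS) was examined with Dixon's gap test for a value set apart from its group, at a critical ratio of 0.71. Such a value was found in 4 groups, while about 3.7 would come by chance (1 in 20), and all 4 are scarce genes of the chromosome 9 cluster. Mmp10 was low in BPS replicate 5, at 2.768 CPM against 3.336 to 3.476 CPM in the other BPS libraries. Mmp12 was high in DMSO replicate 5, at 2.402 CPM against 1.42 to 1.687 CPM. Mmp13 was high in BPS replicate 3, at 0.596 CPM against 0.2759 to 0.3321 CPM. Mmp8 was low in DMSO replicate 2, at 0.3582 CPM against 0.5578 to 0.6055 CPM. These come from 4 different libraries.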

How the results depend on the processing

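No call or direction changed for Mmp3 and Adamts1 under the 20 alternatives, with log2 fold changes of -0.55 to -0.50 and 0.15 to 0.18. Timp2 lost its call under 4 alternatives, Mmp17 under 5 and Mmp19 under 4, all keeping their direction. Of 899 comparisons of single genes with an alternative, 831 kept direction and call, 46 lost a call, 6 gained it and 16 changed sign.

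The family's count of 6 called genes (4 higher, 2 lower) moved as follows. The DESeq2 Wald test gave 7 higher, adding Mmp2, Mmp14 and Adamts2 (adjusted p 0.0275, 0.0366 and 0.0431). The replicate block gave 2 higher, with 371 genes called over the table, 232 higher and 139 lower. Over all genes tested, deviations of same-numbered libraries correlated at -0.0779 to 0.10. A correlation over all genes cannot exclude pairing that affects some of them, and the labels do not say whether libraries were paired. Exact version matching gave 1 lower, and 327 genes over the table, 211 higher and 116 lower, from 11758 tested; 3 related genes were called in place of 9. Transcripts without summing gave 2 of the family, 1 higher and 1 lower, 126 over the table, 91 higher and 35 lower, and 2 of the related lists. Leaving out each library gave 4 to 7 called genes, 2 to 5 higher and 2 to 3 lower, 7 to 10 related genes, and 449 to 773 genes over the table, 282 to 463 higher and 161 to 310 lower. The highest count over the table, 773, came without BPS replicate 1 and the lowest without DMSO replicate 2. The family's lowest came without BPS replicate 4, where Mmp17 and Mmp19 were lost.

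Sign changed, the cause not tested, for Adamts16 when its most abundant transcript was tested alone (0.2731), and for members that were not called. With transcripts these were Adamts3 (-0.1351), Adamts6 (-0.173), Mmp25 (-0.1121) and Mmp28 (-0.1081), and with exact versions Mmp11 (0.0142) and Mmp25 (-0.09174). Without single libraries they were Adamts3 (-0.02541 to 0.2163), Mmp11 (-0.05173 to 0.02521, with 0.01666), Mmp16 (-0.2282 to 0.08097, with 0.04305 and 0.008508) and Mmp28 (-0.0516 to 0.08931, with -0.00728 and -0.03196). Depth limits the genes with 7 to 86 counts per library, among them all tested members of the chromosome 9 cluster but Mmp3 and Mmp10.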

Other observations

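Of 155 RefSeq transcripts of the family, 71 were tested one by one and 2 were called, those of Mmp3 and Adamts1, against 0.335% of all 37588 transcripts tested. Timp1 had 3 listed transcripts with counts. The main model held 88.8% of them and had a log2 fold change of -0.08 (SE 0.03), the second held 10.5% and had 0.45 (SE 0.23), and the third held 0.745% and had -0.30 (SE 0.10), none called (adjusted p by edgeR 0.641, 0.827 and 0.484). Mmp24, a membrane-type MMP known mainly from the nervous system, was not tested: it had 0 or 1 count in each DMSO library and 1 to 8 counts in each BPS library.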
